A study of Rattus norvegicus with 6 samples.

Results

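Myelin of the central nervous system is made by oligodendrocytes, which wrap axons of the spinal cord and brain in layers of their own membrane. The 9 genes described here, *Mbp*, *Mog*, *Mag*, *Mobp*, *Cnp*, *Opalin*, *Cldn11*, *Ermn* and *Aspa*, were the rows of the deposited table with these symbols, 9 of 22050 genes in all, and each was found once. Their identifiers in the table, in the same order, are ENSRNOG00000016516, ENSRNOG00000000775, ENSRNOG00000021023, ENSRNOG00000018700, ENSRNOG00000017496, ENSRNOG00000022386, ENSRNOG00000010263, ENSRNOG00000021472 and ENSRNOG00000019659. They were chosen by name, not by a measured value of the comparison. They were measured by RNA-seq in 3 spinal cord libraries of sham-operated rats and 3 of rats with spared nerve injury, an operation that in its usual form cuts branches of the sciatic nerve and leaves the sural branch intact, used to bring about neuropathic pain (NP). The groups are called Sham and SNI-NP. The study used young adult male Sprague-Dawley rats. The time after surgery, the side and the segment of the cord taken for sequencing are not given in the sources used here. The labels do not say that each library came from a separate rat, so p-values measure the spread between these libraries, which may be technical.

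The genes encode proteins of different parts of the sheath and of the cell that makes it. *Mbp* holds the cytoplasmic faces of the membrane together, *Mobp* is another small basic protein of compact central myelin, and *Cldn11* forms the tight junctions between its layers. *Mog* lies on the outer surface of the sheath, *Mag* faces the axon, *Opalin* sits in the paranodal and inner loops, *Cnp* is an enzyme of the non-compact myelin, *Ermn* is a cytoskeletal protein of late oligodendrocytes, and *Aspa* breaks down N-acetylaspartate. *Mbp*, *Cnp* and *Mag* are also made by Schwann cells, which myelinate axons outside the cord. Transcription of myelin genes in oligodendrocytes depends on *Sox10*, a SOX family factor that Schwann cells share, and on *Myrf*, the regulator of central myelination.

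Promoter sequences, from 250 bases before to 50 bases after a start site, were read from RefSeq (build GRCr8) for 7 of the 9 genes, the others being *Mog* and *Ermn*. The 4 printed here show the letters of the factors just named, 5′ to 3′ on the strand of the gene. Capitals mark a SOX core (ACAAAG or ACAATG) or a Myrf form (CTGGCAC or CTGGTAC), each searched on both strands, and no match overlapped another.

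Mobp chr8:128746982-128747281 plus strand: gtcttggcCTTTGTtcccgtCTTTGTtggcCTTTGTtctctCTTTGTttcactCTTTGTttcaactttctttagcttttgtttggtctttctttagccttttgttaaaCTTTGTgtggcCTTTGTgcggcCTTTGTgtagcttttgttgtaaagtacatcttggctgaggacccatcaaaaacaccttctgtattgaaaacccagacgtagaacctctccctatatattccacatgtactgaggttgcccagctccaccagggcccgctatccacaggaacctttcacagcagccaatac

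Opalin chr1:249858141-249858440 minus strand: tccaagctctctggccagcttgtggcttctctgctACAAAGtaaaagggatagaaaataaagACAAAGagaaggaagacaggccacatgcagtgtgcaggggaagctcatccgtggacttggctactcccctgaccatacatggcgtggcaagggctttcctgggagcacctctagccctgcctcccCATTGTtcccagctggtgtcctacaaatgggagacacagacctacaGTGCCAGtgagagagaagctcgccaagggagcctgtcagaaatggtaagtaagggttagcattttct

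Mag chr1:95290995-95291294 minus strand: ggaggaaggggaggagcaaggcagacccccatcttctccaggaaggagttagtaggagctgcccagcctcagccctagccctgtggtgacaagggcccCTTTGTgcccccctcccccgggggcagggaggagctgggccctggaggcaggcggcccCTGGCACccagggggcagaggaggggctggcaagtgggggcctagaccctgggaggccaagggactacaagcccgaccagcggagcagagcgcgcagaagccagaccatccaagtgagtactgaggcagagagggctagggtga

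Cnp chr10:86011254-86011553 plus strand: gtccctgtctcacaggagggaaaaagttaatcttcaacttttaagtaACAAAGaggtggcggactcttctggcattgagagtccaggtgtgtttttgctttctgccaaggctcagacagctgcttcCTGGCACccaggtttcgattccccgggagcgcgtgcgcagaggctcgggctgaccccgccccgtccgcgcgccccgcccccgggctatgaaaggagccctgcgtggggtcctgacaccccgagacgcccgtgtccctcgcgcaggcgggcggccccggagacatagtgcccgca

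The *Mobp* window held 8 SOX cores and no Myrf form, and *Opalin* held 3 SOX cores and 1 Myrf form. *Mag* and *Cnp* each held 1 of both kinds. Of the 7 genes, 6 had a SOX core and 4 had a Myrf form in at least 1 window, *Cldn11* being without a SOX core. *Mbp* has 2 windows, of which 1 held 3 SOX cores. Among all 33469 promoter windows of this length, 29.1% held a SOX core, 0.977% held at least 3 of them, and 6.78% held a Myrf form. A match is a description of the letters only.

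The libraries held between 16670760 and 18151156 estimated counts, and the counts of the 9 genes ranged from 173 for *Ermn* to 596410 for *Mbp*, all of them whole numbers. Levels are given as CPM, counts scaled to the library size with TMM factors, and comparisons between genes as FPKM, which takes gene length into account. The marker check of the tissue gave a mixed picture before any comparison of groups. *Pmp22*, which encodes a membrane protein abundant in Schwann cell myelin, had 7658 to 11182 FPKM in the 6 libraries, against 12614 to 16004 for *Mbp*. *Prx*, which encodes the Schwann cell protein periaxin, had a mean of 1079 FPKM, above the 649 of *Cnp*. The 9 oligodendrocyte genes took 2.81% to 3.61% of all counts in a library. Most of these were counts of *Mbp*, which Schwann cells also make, so the share does not measure oligodendrocytes alone. A list of 9 markers of peripheral (Schwann cell) myelin took 7.82% to 11.4%. Markers of dorsal root ganglion neurons summed to 363 to 840 CPM in Sham libraries and to 75.9, 1140 and 832 CPM in SNI-NP replicates 1, 2 and 3. The part of these other tissues in the results below was not tested, except where values are given.

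Per length of gene, *Mbp* was far above the rest, with a mean of 14286 ± 1508 FPKM in Sham and 14067 ± 1714 in SNI-NP libraries (SD, n = 3 per group). It was 20.5 to 23.7 times *Cnp*, which came next with 628 ± 65.8 and 670.04 ± 70.5 FPKM. *Mag* followed at 187 ± 41.4 and 162 ± 32.01 FPKM, and the order *Mbp*, *Cnp*, *Mag*, *Cldn11* was the same in 6 of 6 libraries. Further down the order was not the same in every library. *Cldn11* (mean of the 6 libraries 109.6 FPKM) lay above *Mobp* (85.5) in 5 of 6 libraries, *Mobp* above *Aspa* (61.4) in 4 of 6, and *Aspa* above *Mog* (44.2) in 4 of 6. *Mog* was above *Opalin* (17.9) in 6 of 6, whereas *Opalin* was above *Ermn* (16.4) in 3 of 6.

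The 2 most abundant of the genes differed little between libraries. *Mbp* was at 33017.5, 26132 and 28049 CPM in Sham replicates 1, 2 and 3 and at 34303, 25759.7 and 28348 CPM in SNI-NP replicates 1, 2 and 3. Replicate 1 was the highest in both groups, and the groups overlapped. *Cnp* was at 1582, 1232 and 1465 CPM in Sham and at 1786, 1376 and 1544 CPM in SNI-NP libraries, with the same order of libraries within each group. *Mag*, the adhesion protein facing the axon, was at 498 CPM, 301 and 426 in Sham and at 451, 292 and 344 in SNI-NP libraries, again with overlap and with replicate 1 highest.

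*Mog*, *Mobp*, *Opalin* and *Cldn11* spread more between libraries, and more within Sham than within SNI-NP. *Mog* was at 126 CPM in Sham replicate 1, 41.0 in Sham replicate 2 and 86.7 in Sham replicate 3, and at 68.9, 51.6 and 44.6 in the SNI-NP libraries. Sham replicate 1 was thus 3.08 times Sham replicate 2, and all 3 SNI-NP libraries lay between them. *Mobp* had the same pattern, with 331 CPM, 108 and 176 in Sham and 136, 114 and 111 in SNI-NP libraries. *Opalin* was at 77.8, 29.8 and 53.8 CPM in Sham and at 52.3, 40.2 and 41.7 in SNI-NP libraries. *Cldn11* was at 313, 163 and 226 CPM in Sham and at 182, 177 and 157 in SNI-NP libraries, where only SNI-NP replicate 3 lay below all Sham libraries.

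*Ermn* and *Aspa* departed from these patterns. *Ermn* was at 51.7, 24.3 and 35.1 CPM in Sham replicates 1, 2 and 3 and at 23.9, 9.61 and 10.9 CPM in SNI-NP replicates 1, 2 and 3. It was the gene with no overlap between the groups, although Sham replicate 2 and SNI-NP replicate 1 were close to each other. *Aspa* was at 88.8, 104 and 66.5 CPM in Sham and at 89.3, 84.1 and 70.9 in SNI-NP libraries, and Sham replicate 2, the lowest Sham library for the other 8 genes, was the highest for *Aspa*.

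**Figure D1:**
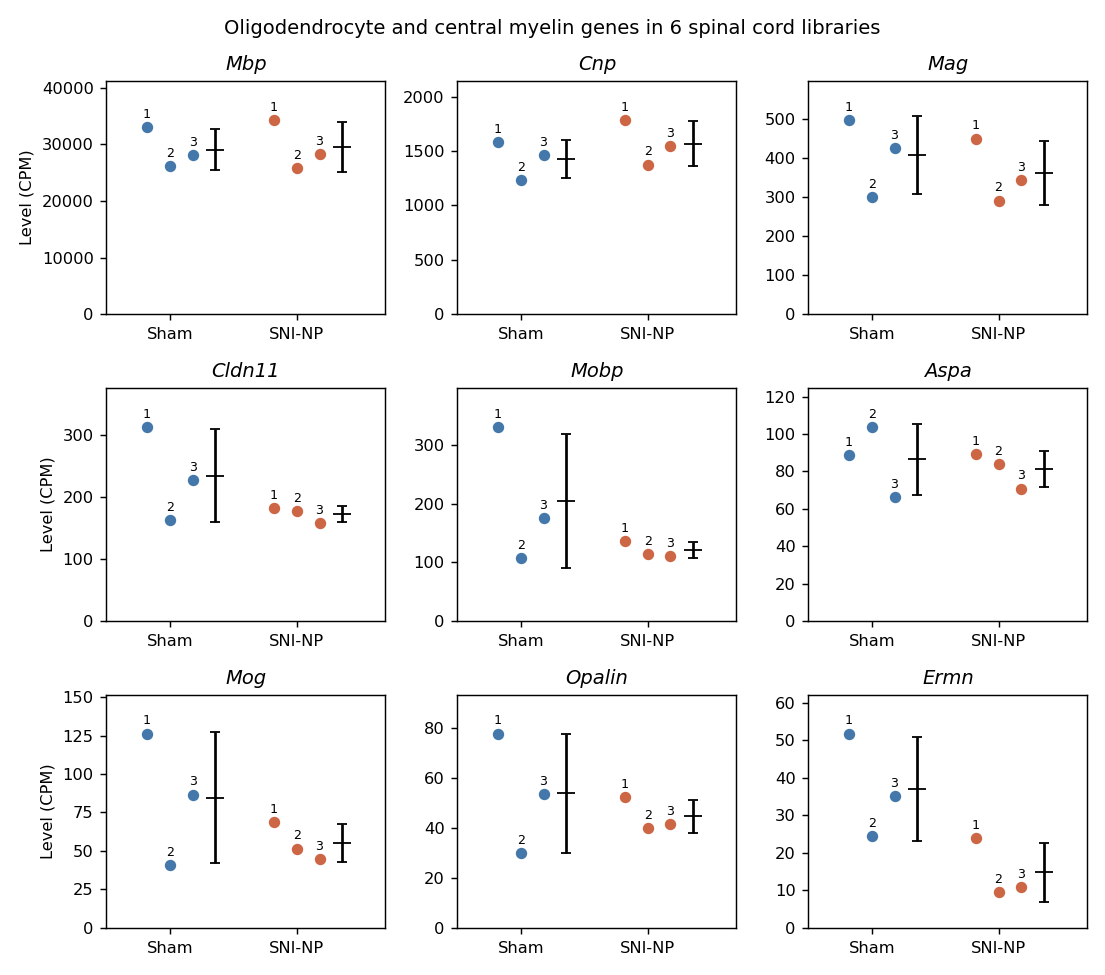
Level of each of the 9 genes in CPM (vertical axis, from 0, one scale per panel) in the 3 Sham and 3 SNI-NP libraries; numbers are replicates, and the black bars give the mean and SD of each group. *Ermn* is the panel in which the groups do not overlap, and *Mog*, *Mobp* and *Opalin* show Sham replicates 1 and 2 on either side of all SNI-NP libraries.

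Within Sham, the order of replicate 1, then 3, then 2 was shared by 8 of the 9 genes, and within SNI-NP replicate 1 was the highest for 9 of 9. The largest level over the smallest in the 6 libraries was 1.33 for *Mbp*, 1.45 for *Cnp* and 1.71 for *Mag*. It was 3.08 for both *Mog* and *Mobp*, 2.61 for *Opalin*, 1.99 for *Cldn11*, 5.39 for *Ermn* and 1.56 for *Aspa*, and the median over all genes tested was 1.57. *Mbp*, *Cnp*, *Aspa* and *Mag* thus varied least, *Ermn*, *Mog*, *Mobp* and *Opalin* varied most, and *Cldn11* lay between them. This split was made after the values were seen and has no test.

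Other marker lists were set beside these profiles. The 7 astrocyte markers had the same Sham order in 7 of 7 genes, and 6 of the 8 neuron markers did. For instance *Gfap*, the intermediate filament of astrocytes, was at 863, 332 and 682 CPM in the Sham libraries, and at 648, 547 and 435 in the SNI-NP libraries. Of the peripheral myelin markers, 0 of 9 had that order. Among them *Pmp22* was at 16300.0, 16856 and 13852 CPM in Sham and at 20503, 15694 and 20524 in SNI-NP libraries. The order was also that of 24 of the 40 further central myelin genes and 13 of the 23 tested lineage genes described below. Of the microglia markers, 2 of 7 had it. The share of all genes with this order was not computed. Every tested marker of these lists had counts in every library. The samples are bulk tissue, so that fewer cells of a type and less RNA per cell cannot be told apart.

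**Figure D2:**
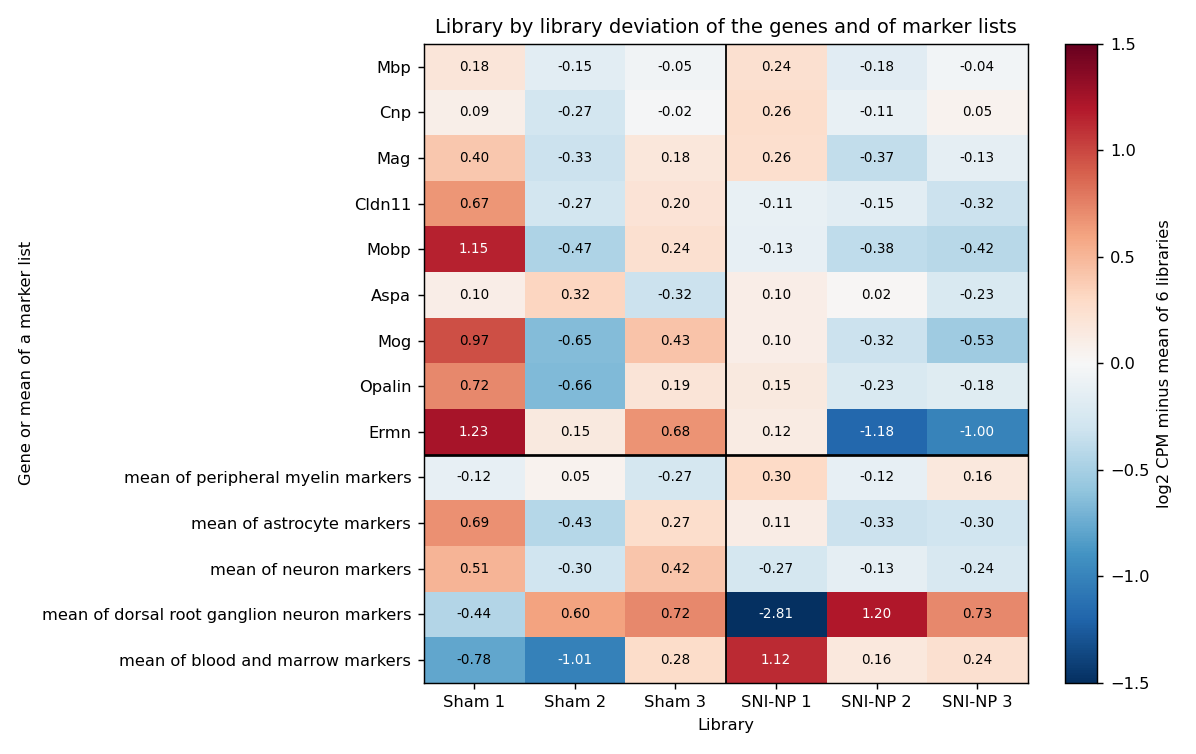
Level of each of the 9 genes and the mean of 5 marker lists in each library, as log2 CPM minus the mean over the 6 libraries (colours end at 1.5 in either direction, numbers give the value). Sham replicate 1 is high and Sham replicate 2 low for most of the 9 genes and for astrocyte and neuron markers, whereas peripheral myelin markers do not have this order.

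The comparison of SNI-NP with Sham asks which genes of the cord differ after nerve injury. Of the 9 genes, *Ermn* fell and the other 8 did not pass, where passing means an unadjusted p-value under 0.05 in edgeR's quasi-likelihood test together with a change of 1.2-fold or more. Over all genes tested, 5.90% were lower and 4.54% were higher at this threshold, and 1 gene of 9 (11.1%) beside these shares is no result about the genes as a set. After adjustment over all 14426 genes 0 of the 9 passed, as did 0% of all genes by edgeR, while 1565 genes had an unadjusted p-value under 0.05 and 210 an adjusted one by DESeq2. The share of calls that were lower was 56.5%, but 72.4% with library totals alone and 37.5% with offsets for transcript length.

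*Ermn* had a mean of 37.1 ± 13.8 CPM in Sham and 14.8 ± 7.92 in SNI-NP libraries (SD, n = 3 per group). On the log2 scale the difference was -1.32, with a standard error of 0.41, a 95% interval from -2.27 to -0.37 and an adjusted p of 0.423 by edgeR. DESeq2 gave -1.34 with an adjusted p of 0.0441. Of all genes tested, 8.15% had every SNI-NP library below every Sham library, as *Ermn* did, and the exact two-sided permutation test of 3 libraries against 3 gave p = 0.1, the smallest it allows. *Ermn* passed the unadjusted threshold in 6 of 6 fits that each left out 1 library, with log2 fold changes from -1.85 without SNI-NP replicate 1 to -1.02 without Sham replicate 1.

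The differences of the other 8 genes were smaller than their spread allowed to be told from 0. *Mobp* had a log2 fold change of -0.77 (95% interval -1.62 to 0.088, adjusted p = 0.488 by edgeR), *Mog* of -0.62 (-1.499 to 0.26, adjusted p = 0.556), and *Cldn11* of -0.44 (-0.96 to 0.078, adjusted p = 0.498). *Opalin* had -0.27 with an interval from -1.003 to 0.47. For *Mag* the value was -0.17, with an interval from -0.70 to 0.35. The narrowest intervals were those of *Cnp*, 0.14 (-0.21 to 0.48), *Mbp*, 0.020 (-0.38 to 0.42), and *Aspa*, -0.086 (-0.50 to 0.33). The median of the 9 log2 fold changes was -0.27, beside 0.00569 for all genes tested, and 7 of the 9 were below 0 beside 49.1% of all genes.

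For *Mobp*, *Mog*, *Cldn11* and *Opalin* the lowest and highest values came from leaving out Sham replicate 2 and 1. For *Mbp* (-0.10 and 0.11) and *Cnp* (0.034 and 0.22) they came from leaving out SNI-NP replicate 1 and 2. Without Sham replicate 2, 5 of the 9 genes passed, namely *Ermn*, *Mobp* (-1.08), *Mog* (-0.95), *Cldn11* (-0.65) and *Opalin* (-0.56), all lower, while of all genes 8.26% were lower at the threshold in that fit. Without Sham replicate 1, *Ermn* alone passed, where 6.21% of all genes passed. The log2 fold changes were then -0.25 for *Mobp*, -0.22 for *Mog*, -0.19 for *Cldn11* and 0.086 for *Opalin*. With each of the other 4 libraries left out in turn, *Ermn* again was the 1 gene that passed, where 6.28% to 13.1% of all genes passed. The median of the 9 log2 fold changes was -0.56 without Sham replicate 2 and -0.091 without Sham replicate 1.

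**Figure D3:**
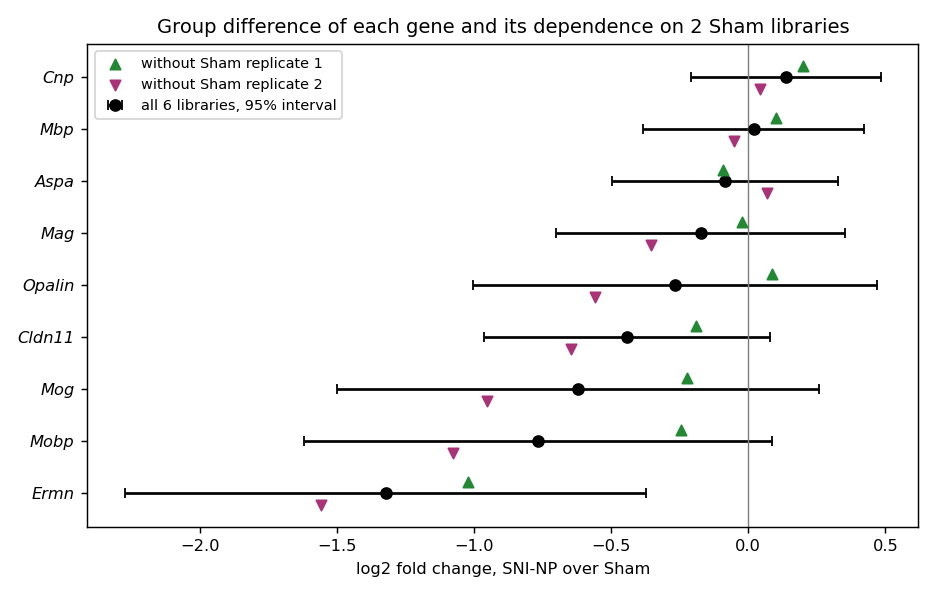
log2 fold change of SNI-NP over Sham for each gene (horizontal axis), with the 95% interval of the fit on all 6 libraries as bars, and the value without Sham replicate 1 (upward triangles) or without Sham replicate 2 (downward triangles). The interval of *Ermn* lies below 0, from -2.27 to -0.37, and for every gene the 2 triangles lie on opposite sides of the value of all libraries.

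Ratios of 2 genes in the same library do not depend on the scaling between libraries, and those given here, from 10 computed, were chosen after the values were seen and are a description. The FPKM ratio of *Ermn* to *Opalin* was 1.22, 1.34 and 1.13 in Sham and 0.789, 0.387 and 0.427 in SNI-NP libraries, without overlap. The ratio of *Ermn* to *Mog* was 0.403 to 0.561 in Sham and 0.173 to 0.345 in SNI-NP libraries. *Ermn* to *Cldn11* was 0.166 to 0.205 and 0.0593 to 0.153, and *Ermn* to *Mobp*, with 0.202 to 0.265 and 0.0981 to 0.210, overlapped. *Ermn* was thus lower in SNI-NP libraries also relative to *Opalin*, *Mog* and *Cldn11*, including in SNI-NP replicate 1, whose *Ermn* level was near that of Sham replicate 2. The same *Ermn* values enter each ratio, so their separation is not a further result beside that of its level.

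*Mobp* to *Opalin* was 6.02, 5.04 and 5.18 in Sham and 3.75, 3.95 and 3.73 in SNI-NP libraries, again without overlap. *Mog* to *Opalin* did not overlap either, with 2.39 to 2.82 in Sham and 1.86 to 2.29 in SNI-NP libraries. *Mog* to *Mobp* was 0.469 to 0.541 in Sham and 0.499 to 0.611 in SNI-NP libraries, with overlap.

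**Figure D4:**
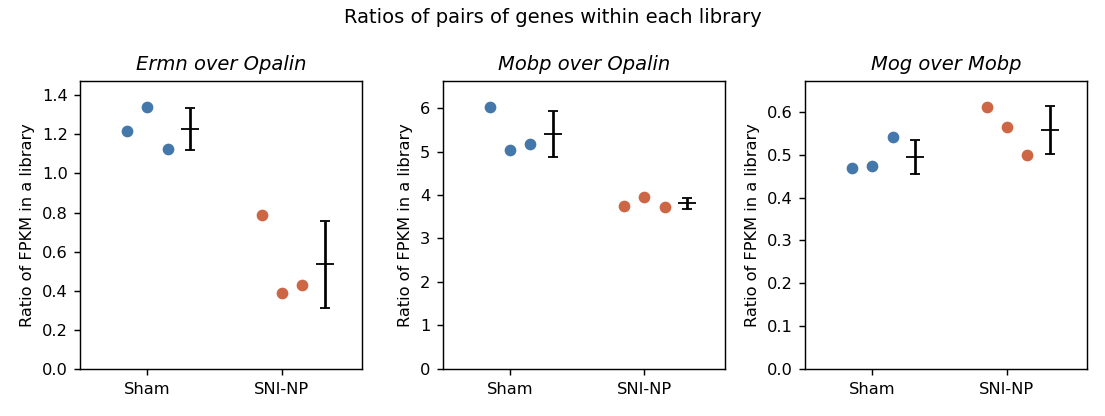
Ratio of the FPKM values of 2 genes within each library (vertical axes, from 0), for the 3 Sham and 3 SNI-NP libraries in the order of their replicate numbers, with the mean and SD of each group as black bars. *Ermn* to *Opalin* and *Mobp* to *Opalin* are lower in all SNI-NP libraries than in all Sham libraries, and *Mog* to *Mobp* overlaps.

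Further genes of central myelin (structure, junctions, galactolipid synthesis and metabolism) were taken from a list of 40, all of which were tested. The list was not limited to genes made by oligodendrocytes alone. Of these, 2 rose, 1 fell and 37 did not pass, with a median log2 fold change of -0.15. The shares of all genes tested were 4.54% higher and 5.90% lower. *Ndrg1*, a gene of myelinating cells, had a log2 difference of 0.33 (standard error 0.13, adjusted p = 0.446 by edgeR). Every SNI-NP library lay above every Sham library for 4 of the 40 genes, *Ndrg1*, *Plekhb1*, *Mcam* and *Pllp*, and for 10.4% of all genes tested. Of these 4, *Ndrg1* and *Plekhb1* were highest in SNI-NP replicate 1 and lowest in Sham replicate 3, as was the peripheral myelin marker *Prx*. *Pllp* was lowest in Sham replicate 2 and *Mcam* in Sham replicate 1. The part of Schwann cells in these values was not tested. *Ndrg1* passed in 2 of 6 fits that left out 1 library, *Mcam* in 1 and *Anln* in 3. Of the 8 other alternatives, *Ndrg1* passed in 4, *Mcam* in 7 and *Anln* in 8. *Ndrg1* and *Mcam* were lost with library totals alone. *Ndrg1* was also lost with no filter on low counts, with at least 10 counts in every library and with the replicate block. *Mcam*, an adhesion molecule best known from blood vessels, had 0.29 (standard error 0.11). *Anln*, which encodes the cytoskeletal scaffold anillin, had -1.10 on that scale (standard error 0.42), and its counts were not whole numbers in any library, so that its value is uncertain. Of the most abundant genes of the list per length, *Apod*, an apolipoprotein gene, had -0.034 (standard error 0.25) and *Plekhb1* 0.25 (standard error 0.12). Leaving out Sham replicate 2 brought the number of these genes past the threshold to 17, of which 15 were lower, where 14.3% of all genes passed. Leaving out SNI-NP replicate 1 or 2 brought it to 6 or 5, where 13.1% or 9.43% of all genes passed. It was 1 when Sham replicate 3 was left out, where 6.96% of all genes passed. Without Sham replicate 1 or SNI-NP replicate 3 it was 0, where 6.21% or 6.28% of all genes passed.

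Of 26 genes of oligodendrocyte precursors and of the lineage, 23 were tested. *Neu4* and *Hes5* had too few counts and *Lhfpl3* was not matched. *Tnr*, which encodes the matrix protein tenascin-R, fell, its log2 difference being -0.99 ± 0.34 (standard error, edgeR adjusted p = 0.436), and the other 22 did not pass. *Tnr* passed in 3 of 6 fits that left out 1 library, and not without Sham replicate 1 or SNI-NP replicate 2 or 3. The median was -0.16, and 5.90% of all genes tested were lower at the threshold. *Sox10* was at 277, 247 and 278 CPM in Sham and at 358, 281 and 314 in SNI-NP libraries (0.25, standard error 0.12). *Myrf* was at 149, 57.1 and 113 CPM in Sham and at 107, 74.9 and 68.9 in SNI-NP libraries, the order seen for *Mog*, and differed by -0.35 on the log2 scale (standard error 0.34). *Olig1*, a lineage factor, had 132, 39.6 and 88.8 CPM in Sham and 75.8, 57.3 and 51.6 in SNI-NP libraries, and *Bcas1*, the most abundant of the list per length, by -0.16 (standard error 0.18). *Myrf* was named for the promoter letters above, after its values were seen. Leaving out Sham replicate 2 brought the number past the threshold to 8, all lower, where 8.26% of all genes were lower. Leaving out SNI-NP replicate 1 brought it to 4, where 13.1% of all genes passed. It was 0 when Sham replicate 1 or SNI-NP replicate 3 was left out, where 6.21% or 6.28% of all genes passed.

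The marker lists of other cell types were fitted in the same way, and no list was tested as a set. Of all genes tested, 4.54% were higher and 5.90% lower at the threshold, and 49.1% had a log2 fold change below 0. Of the peripheral myelin markers, 2 of 9 rose, *Prx* (0.36, standard error 0.15) and *Cldn19* (0.29, standard error 0.12), and all 9 had log2 fold changes above 0, with a median of 0.27, but 8 of 9 with library totals alone. *Prx* and *Cldn19* each passed in 1 of the 6 leave-one-out fits (SNI-NP replicate 2 left out), and *Prx* passed in 2 and *Cldn19* in 6 of the 8 other alternatives. Of the astrocyte markers 1 of 7 fell, the glutamate transporter gene *Slc1a2* (-1.08, standard error 0.39), and of the neuron markers 2 of 8, *Snap25* (-0.65, standard error 0.23) and *Slc17a6* (-0.77, standard error 0.16). When 1 library was left out, *Slc17a6* passed in 6 of 6 fits, and *Slc1a2* and *Snap25* in 2 of 6, being lost without Sham replicate 1 or 3 or SNI-NP replicate 2 or 3. Of the microglia markers 0 of 7 passed, and likewise 0 of 7 ganglion neuron markers. Of blood and marrow markers 4 of 7 rose, *Hba-a1*, *Hbb*, *Alas2* and *Mpo*, as did 1 of 3 meninges and fibroblast markers, *Col1a1*, and 1 of 4 muscle markers, *Myh4*. Of these 6 genes, *Alas2* and *Col1a1* passed in 5 of 6 fits that left out 1 library, *Mpo* in 4, and *Hba-a1*, *Hbb* and *Myh4* in 3. *Myh4* was at 42.7, 1.999 and 108 CPM in SNI-NP replicates 1, 2 and 3. In Sham it was at 2.70, 11.4 and 4.77 CPM, so that SNI-NP replicate 2 lay below all Sham libraries. Its rise (log2 fold change 3.01, standard error 1.16) was thus not shared by all SNI-NP libraries. The counts of *Hba-a1* and *Hbb* were not whole numbers in any library, so that their values are uncertain. After adjustment over all genes, edgeR called 0 of the genes of these lists and DESeq2 called *Slc17a6* (adjusted p = 0.00565).

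Genes with a profile near to that of the 9 were found by the root mean square distance between log2 CPM values, each centred on its own mean over the 6 libraries. The mean profile of the 9 was 0.61, -0.26 and 0.17 in Sham and 0.11, -0.32 and -0.31 in SNI-NP libraries. *Usp54* was nearest, at 0.0551, and *Specc1* (0.063), *Pde4a* (0.0704) and *Nnat* (0.0788) were also near. They are named for this measure alone.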

How the data were processed

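RNA-seq libraries of rat spinal cord, 3 Sham and 3 SNI-NP, were grouped by the sample titles. The deposited tables hold the authors' estimated counts, which are not normalized, and their FPKM values, which take gene length and library total into account. The authors state mapping to the Rat6 genome with unique sequences kept, and their processing notes name FastQC, STAR and HTSeq. The use of strand is not given, so reads of overlapping antisense genes cannot be told apart. Of genes with counts, 11.5% had a count that was not whole (tolerance 1e-06).

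Counts were rounded, filtered with filterByExpr, scaled by TMM and fitted in edgeR 4.0.16 (R 4.3.3, limma 3.58.1) with the quasi-likelihood test, and p-values of 14426 genes were adjusted by Benjamini-Hochberg. Standard errors follow from the fold change and the F statistic. Levels on the log2 scale used a prior count of 2. A count of 0 allows 3 counts, 0.165 to 0.18 CPM, for counting error only. On simulated counts of 14426 genes for this comparison, 200 genes were changed by 2 on the log2 scale. At an adjusted p under 0.05, 92.5% of them were recovered, and 6.09% of calls were unchanged genes. The calls above used an unadjusted p-value under 0.05 with a change of 1.2-fold or more. The simulated shares are therefore not the power or the error rate of those calls.

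Alternatives were DESeq2 1.42.0, RLE, upper-quartile or no scaling factors, no filter or at least 10 counts in every library, transcript length offsets (loess, span 0.5), replicate number as a block, and leaving out each library. The rule for named genes took the 9 genes, the genes of each list past the threshold and its 3 most abundant per length, and the 5 of nearest profile. Of the most abundant genes of the marker lists, those on which no result turned are not named, and some genes that the rule took are not reported here. The genes and lists were chosen with earlier results of these data known. The other measurements of the study were not analysed here.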

Additional observations from a re-analysis of the deposited data

How the results depend on the processing

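Over 14 alternatives for each of the 9 genes, 115 of 126 fits kept the direction and the side of the threshold. *Ermn* passed in all 14. *Mbp* turned to -0.024 with library totals alone, and *Apod* to 9.03e-05 with the replicate block. When 1 library was left out, the log2 fold change ranged from -0.10 to 0.11 for *Mbp*, from -0.56 to 0.086 for *Opalin*, from -0.27 to 0.069 for *Aspa*, from -0.26 to 0.23 for *Apod*, from -0.31 to 0.036 for *Bcas1* and from -0.51 to 0.090 for *Gfap*. Of the 9 genes, 2 passed with DESeq2 (*Ermn* and *Mobp*), where 11.2% of all genes passed, and 1 to 5 when a library was left out. The other myelin genes gave 0 to 17 in the fits without a library, and the lineage genes 0 to 8, where 6.21% to 14.3% of all genes passed. The lineage count was 2 with library totals alone, DESeq2 or the replicate block, all lower, where 10.7%, 11.2% and 9.14% of all genes passed. With length offsets it was 3, of which 1 was lower and 2 were higher, where 12.9% of all genes passed. All genes past the adjusted threshold were 210 with DESeq2 and 0 to 222 when a library was left out (222 without SNI-NP replicate 1, where the adjusted p of *Ermn* was 0.0468 by edgeR, and 2 without Sham replicate 2). Past the unadjusted threshold there were 908 (without Sham replicate 1) to 2092, and 917 without SNI-NP replicate 3, beside 1506. The cause was not tested. For the 9 genes the replicate block changed no call, while *Ndrg1*, *Prx* and *Cldn19* no longer passed. The block did lower the standard error of each of the 9 genes, for *Ermn* from 0.41 to 0.17. The same-numbered libraries had correlations of 0.21, -0.14 and 0.05 of their deviations from the group means. With 3 libraries per group these values cannot tell whether the numbers pair the libraries, and the labels do not say so.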
